A study of Monodelphis domestica and Mus musculus with 26 samples.

Results

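Bulk RNA sequencing of the testis of the gray short-tailed opossum (Monodelphis domestica), a marsupial, was compared between 2 months and 1 month of age. All bulk libraries labelled 1M or 2M were taken, which gave 2 libraries of 1 month and 4 of 2 months out of the 26 samples of the series. Both libraries of 1 month and replicate 1 of 2 months were made by polyA selection (KAPA mRNA HyperPrep), and replicates 2 to 4 of 2 months by rRNA depletion (KAPA RNA HyperPrep with RiboErase). Testes were dissociated with collagenase and trypsin before RNA isolation, and libraries were sequenced on a NovaSeq. The labels give neither a strain, a treatment nor a genetic change for these animals. They do not say whether libraries of 1 age come from separate animals. The p-values below thus measure the spread between libraries, which may be technical. That spread is pooled over all 20 bulk libraries in the fit, most of them older than 2 months. For a gene steady at older ages, the standard error (SE) and p-value can thus understate the spread between the 2 libraries of 1 month. The remaining bulk libraries (4 of 3 months, 3 of 4 months and 7 of adults) entered the same fit and serve as a view of what comes later.

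In a growing testis, Sertoli cells and spermatogonia line the seminiferous cords, while Leydig cells between the cords make steroid hormones. Spermatogonia that respond to retinoic acid switch on STRA8 and enter meiosis as spermatocytes, which pair and recombine their chromosomes with the synaptonemal complex, cohesins and recombinases. Spermatocytes also begin to make parts of the future sperm tail and a germ-cell set of metabolic enzymes, and spermatids later package their DNA with protamines. The samples were labelled by age alone, with no stage of spermatogenesis named.

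Values are TPM (a share of transcripts per gene, corrected for gene length), rescaled to a common total over the genes left once small noncoding RNA genes had been removed. A gene was called when the fitted difference, 2 months minus 1 month on the log2(TPM + 1) scale, was at least 1 in size at a limma adjusted p below 0.05. On this scale changes of low genes are understated. Of 16421 genes tested, 2271 were called (13.8%), 1468 higher (8.94%) and 803 lower (4.89%) at 2 months. The median difference over all genes tested was 0.44, so that a list's median is read beside it. Scaling each library by median ratios moved that median to -0.01 and the split to 1217 higher and 2045 lower, that is from 64.6% to 37.3% of calls higher. With mitochondrial genes left out, an alternative chosen after seeing the data, 2264 were higher and 665 lower (77.3% higher).

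Some markers of the labelled tissue were present in all 6 libraries, while others, such as NR5A1 (1.81 and 1.32 TPM), were low at 1 month. DDX4, the germ-cell RNA helicase, lay between 85.0 and 190.3 TPM, GATA4 of the somatic gonad between 19.5 and 84.2, and STAR, which brings cholesterol into mitochondria for steroid synthesis, between 339.8 and 907. Aligned sequence was 6.54 to 6.95 gigabases per library at 1 month and 4.52 to 7.12 at 2 months; read numbers are unknown. Small noncoding RNA took 0.927% to 2.61% of the deposited TPM in the polyA libraries and 36.1% to 47.0% in the depleted ones. Mitochondrial genes held 4.21% and 4.38% of the remaining TPM at 1 month and 11.8% to 18.8% at 2 months. The 2 libraries of 1 month were alike across genes (Pearson r of 0.993), whereas depleted libraries of 2 months had an r of 0.851 to 0.985 with each other, replicate 4 standing apart from replicates 2 and 3. Among 73 genes of general cell machinery (proteasome, polymerase, splicing, translation and secretion genes, picked after values had been seen), 10 were below 10 TPM in each library of 1 month, against 1 in the polyA library of 2 months and 0 in the depleted ones. Some older polyA libraries also had such genes, with 9 in adult replicate 1, 8 in adult replicate 3 and 3 in replicate 3 of 4 months. The libraries of 1 month had the fewest genes at 1 TPM or more, 11924 and 11878, against 13361 to 16091 at 2 months. For example, GANAB, the catalytic subunit of a glucosidase of the endoplasmic reticulum, measured 1.73 and 1.17 TPM at 1 month and 86.1, 114, 116 and 150.1 at 2 months. Of these 73 genes 11 were called higher (15.1% against 8.94%) and 2 lower (2.74% against 4.89%), and their part in the calls below was not tested.

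The polyA library of 2 months, shown apart, moved the same way as the depleted ones for most calls. It is part of the fit that made the calls, so this agreement is partly built in and is no separate support. In 1457 of the genes called higher all 4 libraries of 2 months lay above both of 1 month, and in 794 of those called lower all 4 lay below. Over all genes tested these orders occurred in 47.5% and 19.4%. Nearly all called genes had them, so a lack of overlap stated below for a called gene adds little to its call. In 1419 and 713 of the called genes the polyA library by itself was also beyond both libraries of 1 month by at least 1. A fit on polyA libraries alone, in which 2 months is 1 library assumed to vary like the other ages, called 1292 genes (7.87%), 863 higher (5.26%) and 429 lower (2.61%), of which 1203 had been called in the same direction with all libraries. With the depleted libraries of 2 months alone, where age and library type cannot be told apart, 51.6% of genes were called.

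**Figure D1:**
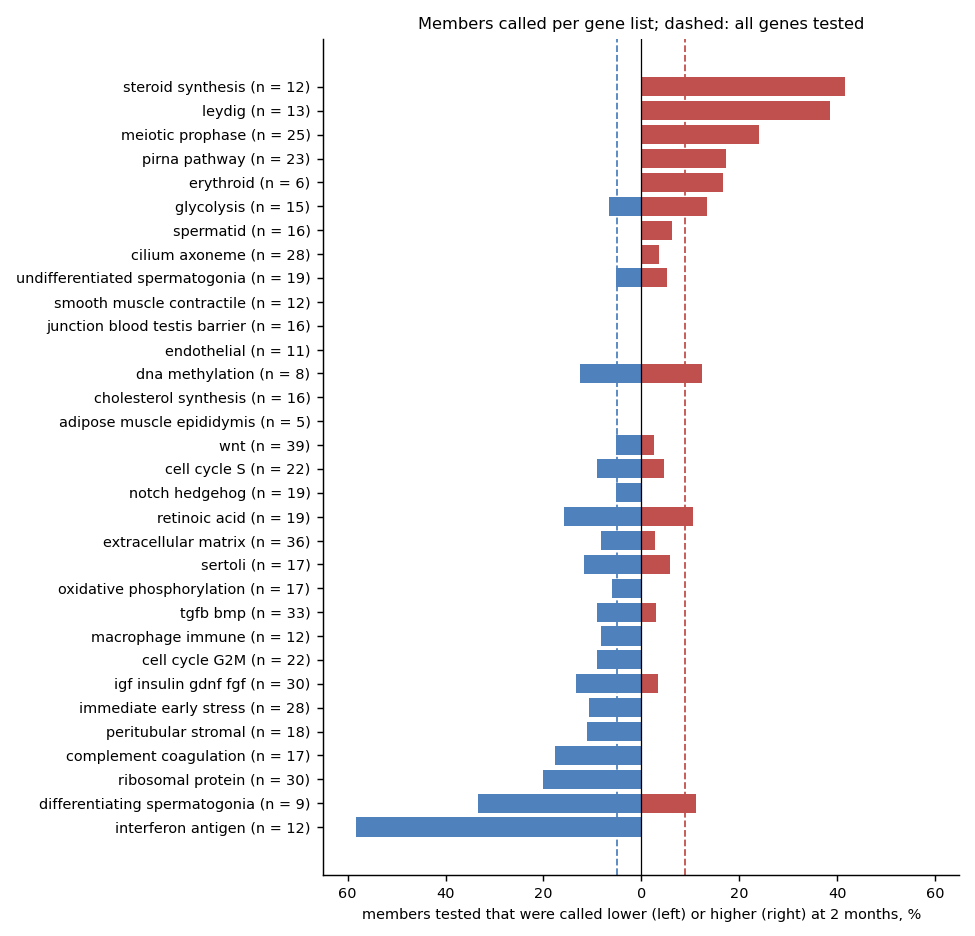
Bars give, for each gene list with at least 5 members tested except general machinery, the percent of those members called higher (right, red) or lower (left, blue) at 2 months. Dashed lines mark all genes tested, 8.94% higher and 4.89% lower. The general machinery list, not drawn, had 15.1% of 73 genes called higher and 2.74% lower. Steroid synthesis (41.7%), Leydig (38.5%) and meiotic prophase (24.0%) extend farthest past the right line, and interferon and antigen presentation (58.3%) extends farthest past the left one.

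Some of the meiotic genes rose between 1 and 2 months. Of 25 meiotic prophase genes tested, 6 were called higher (24.0%, against 8.94% of all genes) and 0 lower, with a median difference of 1.74. SYCP1, the transverse filament of the synaptonemal complex that zips paired chromosomes together, measured 3.204 and 4.78 TPM in the libraries of 1 month, 37.01 in the polyA library of 2 months and 45.8, 47.1 and 18.9 in depleted replicates 2, 3 and 4. All 4 libraries of 2 months were several times above both of 1 month, and the fitted difference was 3.07 (SE 0.55, limma adjusted p = 0.00119). DMC1, the recombinase that carries out strand exchange between homologs, went from 3.02 and 1.596 to 15.3 in the polyA library and 22.2, 18.2 and 18.5 in the depleted ones, a difference of 2.64 (SE 0.43, limma adjusted p = 0.000517). Its 4 values at 2 months were close together and did not overlap with those of 1 month.

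The other called members were chromosome axis, cohesin and recombination genes. HORMAD1, an axis protein, had 23.3 and 27.6 TPM at 1 month against 66.6 (polyA) and 53.1, 50.2 and 41.9 (depleted), and it differed by 1.74 (SE 0.34, limma adjusted p = 0.00254). The meiotic cohesin STAG3 was at 1.36 and 1.77 TPM and then at 9.505 and 47.7, 36.1 and 20.8, a difference of 2.70 (SE 0.83, limma adjusted p = 0.0371). In these 2 genes, too, the ages did not overlap. The cohesin subunit RAD21L1 (2.69 and 4.63 against 13.1 and 7.05, 7.7001 and 8.45) differed by 1.81 (SE 0.38, limma adjusted p = 0.00379), and MEIOB, a single-strand DNA binding partner of recombination (1.37 and 1.78 against 6.52 and 7.69, 6.93 and 3.44), by 1.99 (SE 0.49, limma adjusted p = 0.0107). With polyA libraries alone 4 of the 25 were called. Leaving out 1 of the 6 libraries gave 3 (without replicate 1 of 1 month) to 9 calls (without replicate 4 of 2 months), and leaving out 3 older polyA libraries with few detected genes gave 17. In that last fit 4409 of all 16421 genes were higher, against 1468 in the main one. Median-ratio scaling left 4 higher and 0 lower, and the replicate number as a block left 3.

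Several germ-line genes split the libraries of 2 months. HSPA2, a chaperone abundant in pachytene spermatocytes, had 30.7 and 27.2 TPM at 1 month, 196 in the polyA library and 1899, 1173 and 63.04 in depleted replicates 2 to 4. Replicates 2 and 3 were thus far above replicates 1 and 4, which were still above 1 month, and the gene was not called (difference 3.28, SE 1.18, limma adjusted p = 0.0726). MEIOC, which keeps cells in prophase, was likewise highest in replicates 2 and 3 (2.24 and 2.42, then 10.8, then 308, 208 and 47.8), as were the cohesin SMC1B (3.25 and 3.24, 17.2 and 209, 147 and 33.2) and the cyclin CCNA1 (1.27 and 0.805, 2.57 and 56.5, 40.2 and 1.32). None of these 3 was called, with limma adjusted p values of 0.127, 0.0534 and 0.289. In the 4 libraries of 3 months HSPA2 had reached 3401 to 3861 TPM and MEIOC 559.7 to 716.

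The cilium and axoneme genes, which build motile tails, followed the same split. Of 28 tested, 1 was called (3.57% higher, below the 8.94% of all genes), although 27 had a positive difference, as had 10868 of all 16421 genes. Their summed level was 107, 1387, 905 and 106 TPM in replicates 1 to 4 of 2 months, against 37.9 and 38.96 at 1 month. The called gene, DNAI1 of the outer dynein arm, had 1.57 and 1.09 TPM at 1 month, 11.6 in the polyA library and 62.4, 43.9 and 5.35 in the depleted ones, a difference of 2.88 (SE 0.89, limma adjusted p = 0.0387). The tektin TEKT2 went from 0.515 and 0.487 to 5.84 and 311, 185 and 1.97 without being called (difference 3.40, SE 1.62, limma adjusted p = 0.173). FOXJ1, the master transcription factor of motile cilia, was at 0.01804 and 0.122 TPM at 1 month, listed at 0 in replicates 1 and 4 of 2 months, and at 24.1 and 20.2 in replicates 2 and 3. Without replicate 4 of 2 months 8 cilium genes were called, and without either library of 1 month or replicate 1 or 3 of 2 months 0 were. The cause of the split between replicates was not tested.

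LDHC, the lactate dehydrogenase of spermatocytes and sperm, passed the test in spite of the split. It measured 3.47 and 2.12 TPM at 1 month, 98.04 in the polyA library and 806, 489 and 24.999 in the depleted ones, a difference of 5.64 (SE 1.20, limma adjusted p = 0.00439). LDHA, the somatic form, moved the other way, from 3265 and 3407 to 709 and 519.9, 408 and 184 (difference -2.21, SE 0.54, limma adjusted p = 0.0102). LDHA far exceeded LDHC in both libraries of 1 month, and in replicates 2 and 3 of 2 months LDHC was the higher of the pair on the per-length TPM scale.

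LDHC was the 1 spermatid gene called of 16 tested (6.25% against 8.94%), although 15 had a positive difference and 12 lay higher in all 4 libraries of 2 months than in both of 1 month, as did 47.5% of all genes. The summed level of 19 spermatid genes was 34.8 and 34.6 TPM at 1 month, 176, 1265, 792 and 88.3 at 2 months and 5439.9 to 8251 at 3 months. The protamine and transition protein genes were low at both ages. PRM1, the protamine that packs sperm DNA, had 0.336 and 0.411 TPM at 1 month and was listed at 0 in the polyA library of 2 months, with 11.9, 3.52 and 0.0735 in the depleted ones. The transition protein gene TNP1 was listed at 0 in both libraries of 1 month and in replicates 1 and 4 of 2 months, and at 1.05 and 1.89 TPM in replicates 2 and 3. At 3 months PRM1 lay at 1187 to 3323 TPM and TNP1 at 193 to 586. Summed over 26 meiotic prophase genes, the level was 304 and 360 TPM at 1 month and 937, 3709, 2456 and 632 in replicates 1 to 4 of 2 months. Such genes were thus measured at both ages. Whether cells had entered meiosis was not tested, so 2 months is not taken here as lying wholly before it.

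**Figure D2:**
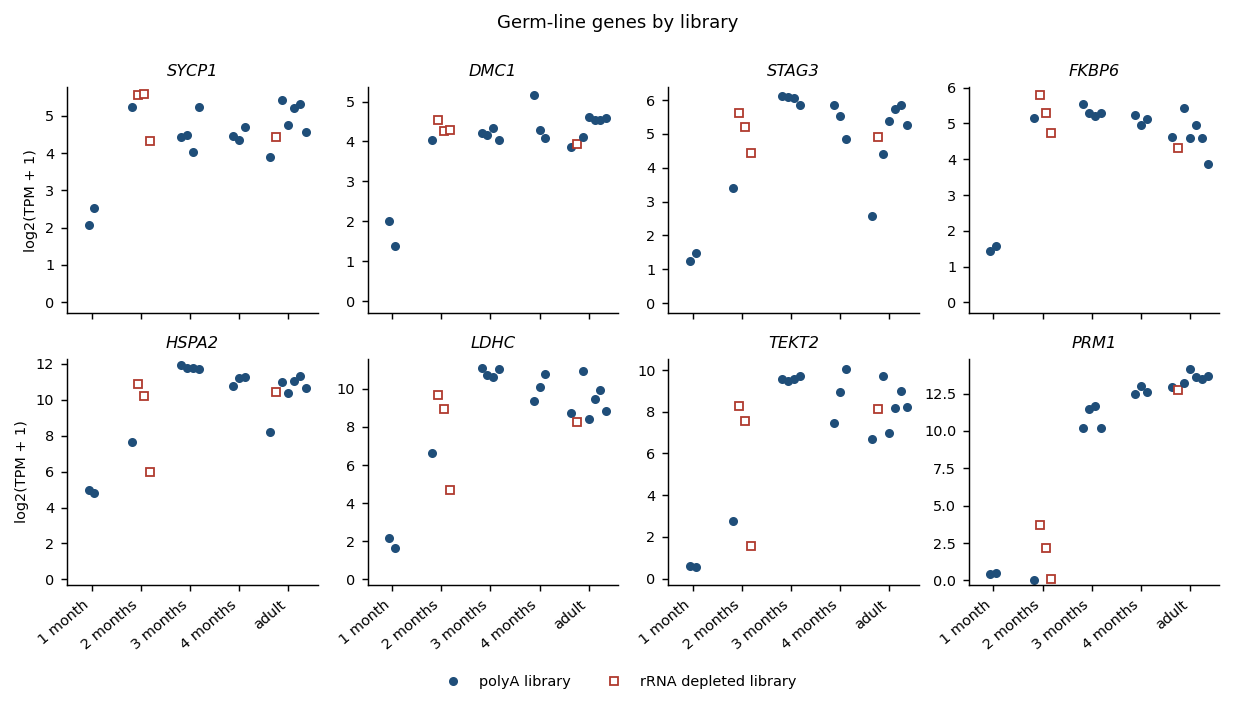
Each panel shows log2(TPM + 1) of 1 gene in every opossum bulk library by age; filled circles are polyA and open squares rRNA-depleted libraries, with replicates of an age side by side from left to right. SYCP1, DMC1, STAG3 and FKBP6 are above 1 month in all 4 libraries of 2 months, HSPA2, LDHC and TEKT2 are far higher in replicates 2 and 3 than in 1 and 4, and PRM1 is high only from 3 months on in the libraries shown.

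Among genes of the piRNA pathway, which silences transposons in the germ line through small RNAs bound to PIWI proteins, 4 of 23 were called higher (17.4% against 8.94%) and 0 lower, with a median of 1.29. FKBP6, a co-chaperone of piRNA loading, rose from 1.71 and 2.01 TPM to 34.6 in the polyA library and 54.5, 38.4 and 25.7 in the depleted ones (difference 3.83, SE 0.44, limma adjusted p = 1.62e-05). GPAT2 (2.32 and 0.702 against 12.3 and 9.07, 9.43 and 13.3) and the helicase MOV10L1 (3.76 and 5.98 against 16.1 and 12.02, 10.4 and 16.3), both needed to make piRNAs, differed by 2.45 (SE 0.56, limma adjusted p = 0.00689) and 1.53 (SE 0.46, limma adjusted p = 0.0333). In all 3 genes every library of 2 months was above both of 1 month. PIWIL1, the PIWI protein of spermatocytes, was at 6.72 and 11.2, then 26.9 and 163, 104 and 25.6, and was not called (limma adjusted p = 0.0968). The fourth called member was DNMT3A, a de novo DNA methyltransferase that is also on the DNA methylation list; it went from 7.21 and 4.68 to 36.3 and 35.98, 42.4 and 82.03 (difference 2.01, SE 0.65, limma adjusted p = 0.0479) and was called under 12 of 23 alternatives. DNMT3B, its relative, fell from 8.32 and 7.702 to 1.55 and 2.18, 1.96 and 2.44 (difference -1.70, SE 0.45, limma adjusted p = 0.016). Leaving out 1 library left between 1 (without replicate 2 of 1 month, or replicate 1 of 2 months) and 4 piRNA calls, and without the 3 older libraries 13 were called. In the fit without those 3, 4409 of all 16421 genes were higher. With polyA libraries alone 2 were called, under median-ratio scaling 2 and with the replicate block 1.

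Undifferentiated spermatogonia genes gave few calls, 2 of 19, and differentiating ones gave 4 of 9, against 13.8% of all genes. On the undifferentiated list 5.26% were called in each direction, against 8.94% higher and 4.89% lower over all genes. Of its 19 differences 16 were above 0, as were 10868 of 16421 over all genes, and the median was 0.90 against 0.44. Without overlap 11 lay higher and 1 lower (47.5% and 19.4% of all genes). Leaving out 1 of the 6 libraries gave 0 to 2 higher calls. Without the 3 older libraries 7 were higher and 1 lower, in a fit that called 4409 and 1403 of all genes. Of 19 undifferentiated spermatogonia genes tested, UCHL1, a deubiquitinase of spermatogonia, was the 1 called higher, at 179 and 188 TPM against 643 and 626, 779.8 and 975 (difference 1.91, SE 0.48, limma adjusted p = 0.0137). TFAP2C, a transcription factor of early germ cells, was the 1 called lower, from 2.05 and 2.25 to 0.344 and 0.176, 0.241 and 0.114 (difference -1.41, SE 0.17, limma adjusted p = 3.55e-05). All its values of 2 months were below 1 TPM, so it passed the filter only through the libraries of 1 month. STRA8, the retinoic-acid target that opens meiosis, rose from 2.66 and 2.47 to 8.35 and 8.63, 8.996 and 11.5 (difference 1.75, SE 0.41, limma adjusted p = 0.00785). Its 4 values at 2 months were close to each other and none overlapped with 1 month. The receptor KIT of differentiating spermatogonia had 3.87 and 5.72 TPM at 1 month and 16.01 and 9.96, 9.64 and 26.3 at 2 months, and was not called (limma adjusted p = 0.0598). On the list of differentiating spermatogonia (9 tested) 3 were called lower (33.3% against 4.89%), namely DNMT3B, the retinoic acid binding protein CRABP1 and UPP1, a uridine phosphorylase. STRA8 alone was called higher (11.1% against 8.94%). The median of the 9 was 0.90, with 6 differences above 0. At a pseudocount of 0.1 they gave 2 higher and 1 lower, with polyA libraries alone 0 and 2, and without the 3 older libraries 5 and 3. CRABP1 went from 7.19 and 15.6 to 0.656 and 0.0546, 0.0874 and 0.332 TPM (difference -3.01, SE 0.25, limma adjusted p = 3.83e-07), and UPP1 from 38.1 and 35.4 to 1.92 and 1.35, 2.199 and 0.265 (difference -3.73, SE 0.73, limma adjusted p = 0.00236). UCHL1 was not called without either library of 1 month, without replicate 1 of 2 months, with polyA libraries alone or under median-ratio scaling. STRA8 was lost without replicate 2 of 1 month, with polyA libraries alone, under median-ratio scaling and with the replicate block, and DNMT3B without either library of 1 month or replicate 1 of 2 months, with polyA libraries alone, with the replicate block and at a pseudocount of 0.1. In bulk tissue, fewer cells of a type and less RNA per cell cannot be told apart.

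Several steroid genes rose. Of 12 steroid synthesis genes tested, 5 rose (41.7% against 8.94%) and 0 fell, with a median of 0.91; the same 5 are the calls among the 13 Leydig genes. NR5A1, the transcription factor (SF-1) that turns on steroid enzymes, measured 1.81 and 1.32 TPM at 1 month, 54.2 in the polyA library of 2 months and 71.6, 82.9 and 114 in the depleted ones. All libraries of 2 months were above both of 1 month, with a difference of 3.89 (SE 0.95, limma adjusted p = 0.0107). Among older libraries NR5A1 was lowest in replicate 3 of 4 months (10.6 TPM) and adult replicates 1 (12.03) and 3 (3.61). Those libraries, like both of 1 month, also had low general machinery genes, and whether the patterns are related was not tested. FDXR, which passes electrons to mitochondrial steroid enzymes, rose from 6.62 and 4.803 to 60.6 and 66.2, 60.4 and 90.3 (difference 2.97, SE 0.38, limma adjusted p = 4.62e-05). The lipoprotein receptor SCARB1, which takes up cholesterol, went from 0.837 and 1.86 to 22.8 and 14.4, 18.03 and 12.6 (difference 2.61, SE 0.81, limma adjusted p = 0.039), and the aromatase CYP19A1, which makes estrogen, from 0.0206 and a listed 0 to 2.96 and 14.1, 6.57 and 0.599 (difference 2.52, SE 0.78, limma adjusted p = 0.0384).

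The fifth, POR, is the electron donor of microsomal P450 enzymes in all cells. It had 0.157 and 0.107 TPM at 1 month and 43.9 and 35.3, 39.02 and 35.7 at 2 months (difference 4.43, SE 0.98, limma adjusted p = 0.0057), and it is also 1 of the general machinery genes that were low at 1 month. The 2 genes that define steroid-making cells most directly did not pass the test. STAR had 443 and 462 TPM at 1 month against 646 and 339.8, 387 and 907, overlapping between ages (difference -0.06, SE 0.73, limma adjusted p = 0.961), and CYP11A1, the side-chain cleavage enzyme, had 119.5 and 111 against 296 and 139, 174 and 134 (difference 0.84, SE 0.65, limma adjusted p = 0.423). Without replicate 1 of 2 months, the polyA library, 1 of the 5 steroid genes was called, without either library of 1 month 2 were, and without replicate 3 of 2 months 3 were. With polyA libraries alone 4 steroid genes were higher and 1 lower, and with the replicate block 3 and 1; 1 lower call also appeared without replicate 2 of 1 month, at a pseudocount of 0.1 and under median-ratio scaling. INSL3, CYP17A1 and the HSD3B genes were not matched by name and are not analysed here.

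Of 17 Sertoli genes tested, 1 was called higher (5.88% against 8.94%) and 2 lower (11.8% against 4.89%). INHBB, an inhibin and activin subunit, rose from 0.471 and 0.504 to 2.397 TPM in the polyA library and 13.2, 16.2 and 43.02 in the depleted ones (difference 2.07, SE 0.61, limma adjusted p = 0.0312). GDNF, the Sertoli growth factor that maintains spermatogonial stem cells, fell from 4.64 and 3.59 to 1.07 and 0.572, 0.825 and 1.22 (difference -1.44, SE 0.31, limma adjusted p = 0.00448), and HOPX from 10.5 and 9.83 to 2.33 and 0.101, 0.287 and 0.431 (difference -2.01, SE 0.56, limma adjusted p = 0.0222). The 3 genes did not overlap between ages. At a pseudocount of 0.1 none of them was called, and GDNF was also lost with the 6 libraries alone. Without either library of 1 month 0 Sertoli genes were higher and 1 was lower, and without replicate 1 of 2 months 1 was lower. INHBB and HOPX were not called with polyA libraries alone or with the replicate number as a block. Transcription factors of Sertoli cells were not called: SOX9 had 49.7 and 50.4 against 126 and 41.5, 56.1 and 60.2 TPM, and WT1 10.6 and 11.2 against 56.1 and 82.6, 109 and 107. INHA, the other inhibin subunit, was at 14.1 and 15.3 TPM and then at 174 and 34.04, 76.8 and 141; it did not pass with all libraries (difference 2.23, SE 0.92, limma adjusted p = 0.115), but did in the fit of polyA libraries alone (limma adjusted p = 0.0265). Of 16 blood-testis barrier and junction genes 0 were called, against 13.8% of all genes. Without overlap 7 lay higher and 2 lower, against 47.5% and 19.4% of all genes.

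Of 18 peritubular and stromal genes, 2 were called lower (11.1% against 4.89%) and 0 higher, while the list's median was 0.38. Without overlap 10 of the 18 lay higher (47.5% of all genes did) and 6 lower (19.4% of all genes). The median turned to -0.94 without replicate 1 of 2 months, -0.34 under median-ratio scaling and -0.03 with the replicate block. Over all genes those medians were 0.58, -0.01 and 0.37. A fit of the 6 libraries alone called 5 higher and 4 lower, against 2764 and 1043 of all 16421 genes. POSTN (periostin), a matrix protein of growing connective tissue, had 899.5 and 802 TPM at 1 month, 39.5 in the polyA library and 32.1, 27.5 and 26.03 in the depleted ones (difference -4.64, SE 0.77, limma adjusted p = 0.000591). DCN (decorin), a collagen-binding proteoglycan, fell from 1754 and 1252 to 409.8 and 122, 169 and 131 (difference -2.70, SE 0.80, limma adjusted p = 0.0312), and THBS2, a matrix thrombospondin, from 51.99 and 27.7 to 2.24 and 1.15, 0.739 and 0.458 (difference -4.05, SE 0.42, limma adjusted p = 5.31e-06). All 3 were below 1 month in every library of 2 months. LAMB2, a basement membrane laminin chain, was the 1 matrix gene called higher (2.61 and 3.96 against 22.9 and 44.9, 41.7 and 32.2, difference 2.095, SE 0.69, limma adjusted p = 0.0492). In all, 1 of 36 matrix genes was higher (2.78% against 8.94%) and 3 were lower (8.33% against 4.89%). The list's median of -0.17 moved to -0.74 without replicate 1 of 2 months and to 0.02 without replicate 1 of 1 month. Over all genes the medians of those fits were 0.58 and 0.43. LAMB2 was called in 1 of the 6 fits that leave out a library, the one without replicate 4 of 2 months, and DCN was not called without either library of 1 month. COL1A1 (30.8 and 23.5 against 122 and 36.7, 72.2 and 102) and COL3A1 (122 and 100.5 against 258 and 357, 433 and 259), fibrillar collagens, were not called. Smooth muscle contractile genes gave 0 calls of 12, against 13.8% of all genes. Without overlap 8 of the 12 lay higher and 2 lower (47.5% and 19.4% of all genes), with a median of 0.91 against 0.44.

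Of 11 endothelial genes 0 were called, against 13.8% of all genes. Without overlap 2 of the 11 lay higher and 5 lower (47.5% and 19.4% of all genes). Their summed level was 92.3 and 123 TPM at 1 month and 26.6, 67.1, 77.0 and 56.9 in replicates 1 to 4 of 2 months. Their median of -0.84 turned to 0.20 without replicate 1 of 2 months, the polyA library, and was -1.53 with polyA libraries alone. Over all genes those medians were 0.44, 0.58 and 0.26. Among 12 macrophage and immune genes the scavenger receptor MARCO was the 1 call, lower at 2 months (8.33% of the list against 4.89%). It had 4.71 and 5.58 TPM against 0.841 and 1.36, 1.297 and 1.95 (difference -1.73, SE 0.20, limma adjusted p = 2.08e-05). The list as a whole did not follow it: without overlap 6 lay higher and 1 lower (47.5% and 19.4% of all genes), with a median of -0.01. KIT, 1 of the 6 that lay higher, is also on both lists of spermatogonia genes. The summed level of the immune list, KIT included, was 75.3 and 84.8 TPM at 1 month and 90.06, 270, 298 and 131 at 2 months. Among 6 erythroid genes tested, SLC4A1, the anion exchanger of red cells, was the 1 called higher (16.7% against 8.94%), at low values (0.1295 and 0 against 1.96 and 1.13, 1.41 and 1.48 TPM, difference 1.13, SE 0.22, limma adjusted p = 0.00227), and not without replicate 1 of 2 months. The embryonic globin HBE1 had 1603 and 1348 TPM at 1 month and 589.8 and 277, 377 and 242 at 2 months, with no overlap, and was not called (limma adjusted p = 0.321). Summed over 8 erythroid genes the level was 1818 and 1511 TPM at 1 month and 1026, 547, 686 and 564 at 2 months.

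**Figure D3:**
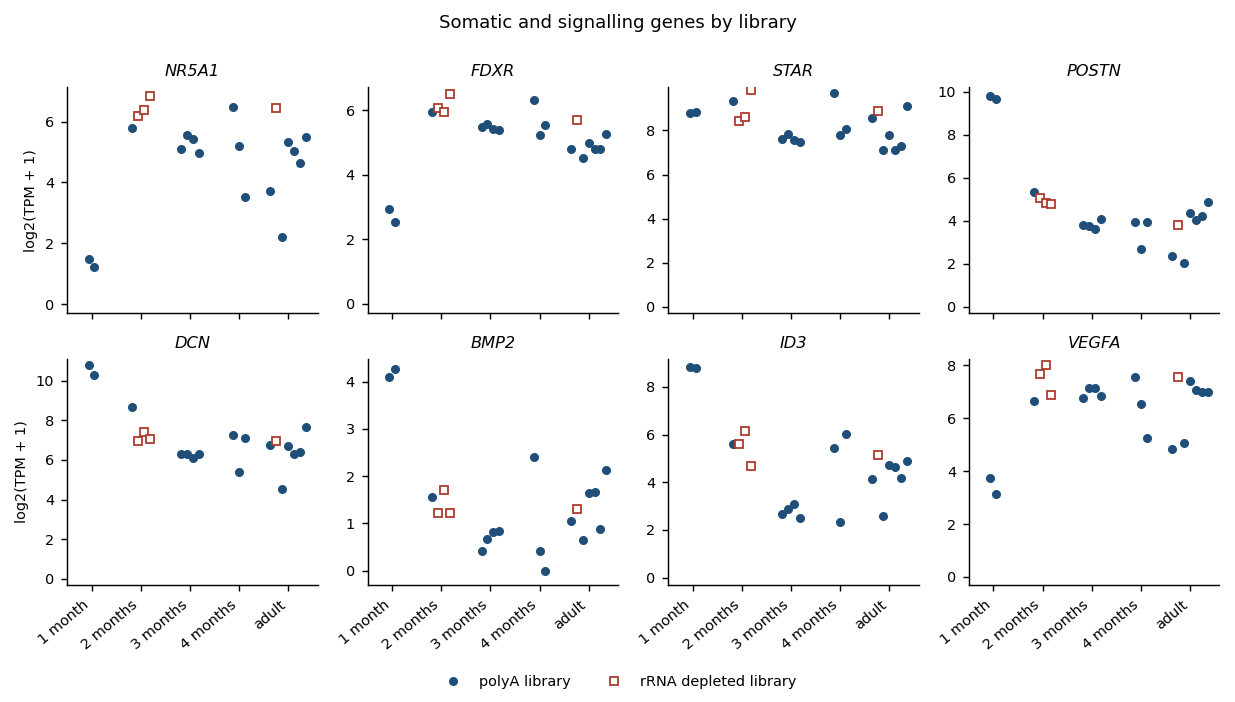
Each panel shows log2(TPM + 1) of 1 somatic or signalling gene in every opossum bulk library by age, with polyA libraries as filled circles and rRNA-depleted ones as open squares. NR5A1, FDXR and VEGFA are higher and POSTN, DCN, BMP2 and ID3 lower in all 4 libraries of 2 months than in both of 1 month, whereas STAR overlaps.

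Secreted signals changed gene by gene. In the retinoic acid pathway 2 of 19 genes tested were higher (10.5% against 8.94%) and 3 lower (15.8% against 4.89%). RBP4, the carrier of retinol in plasma, fell from 7.34 and 2.58 TPM to 0.249 in the polyA library and 0.152, 0.156 and a listed 0 in the depleted ones (difference -2.14, SE 0.31, limma adjusted p = 0.000203). CRABP1, described above, was another of those called lower. RBP4 and CRABP1 were below 1 TPM in every library of 2 months and passed the filter only through those of 1 month. CYP26A1, the enzyme that degrades retinoic acid, rose from 0.417 and 0.993 to 4.78 and 1.48, 1.46 and 1.87 (difference 1.36, SE 0.43, limma adjusted p = 0.0409), beside STRA8, and was called under 10 of the 21 alternatives that tested it. The synthesis enzyme ALDH1A1 was high throughout, at 416 and 426 and then 732 and 802, 958 and 704 TPM, without overlap between ages, and was not called (limma adjusted p = 0.12). Without replicate 2 of 1 month, under median-ratio scaling and with the replicate block, 0 of the 2 higher calls were made.

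In the TGF-beta and BMP pathway 1 of 33 genes was higher (3.03% against 8.94%) and 3 lower (9.09% against 4.89%). The ligand BMP2 fell from 16.1 and 18.2 to 1.93 and 1.33, 2.25 and 1.33 TPM (difference -2.69, SE 0.61, limma adjusted p = 0.00664), and ID3, a direct target of BMP signals, from 459 and 444 to 47.7 and 47.4, 69.7 and 24.6 (difference -3.64, SE 0.94, limma adjusted p = 0.0152). GDF9, a ligand best known from the oocyte, was at 1.84 and 1.65 TPM at 1 month and listed at 0 in all 4 libraries of 2 months. It was the third gene called lower, but it passed the filter only through the libraries of 1 month. INHBB, given above, was the 1 called higher, and it passed only through those of 2 months. The related targets ID1 (102 and 95.2 against 28.9 and 35.3, 43.7 and 13.4) and ID2 (32.4 and 36.8 against 9.202 and 18.04, 21.9 and 6.82) did not overlap between ages and were not called. Without replicate 2 of 1 month the pathway had 0 higher and 1 lower call, without replicate 1 of 1 month 0 and 2, and without replicate 1 of 2 months 1 and 1. BMP2 and ID3 were not called with polyA libraries alone. Median-ratio scaling gave 10 lower calls, in a fit where 2045 of all 16421 genes were lower.

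Among insulin-like, FGF, GDNF and VEGF genes 1 of 30 was higher (3.33% against 8.94%) and 4 lower (13.3% against 4.89%). VEGFA, the vascular growth factor, rose from 12.6 and 7.88 to 99.9 and 201, 256 and 117 TPM (difference 3.08, SE 0.83, limma adjusted p = 0.0187). FGF7, a stromal growth factor, fell from 63.8 and 53.3 to 8.61 and 7.19, 9.58 and 6.13 (difference -2.76, SE 0.71, limma adjusted p = 0.0141), and FGF9, a testis-promoting factor of the early gonad, from 8.96 and 9.59 to 2.12 and 0.955, 1.04 and 3.47 (difference -1.91, SE 0.45, limma adjusted p = 0.00827). IGFBP3, which binds insulin-like growth factors, fell from 296 and 378 to 112 and 43.1, 55.2 and 72.7 (difference -2.20, SE 0.51, limma adjusted p = 0.00778); the fourth was GDNF. Each of these genes lay on 1 side of 1 month in all 4 libraries. Without replicate 2 of 1 month 1 of the 30 was called lower and 0 higher, and the higher call was also lost without replicate 1 of either age.

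Of 39 Wnt pathway genes 1 was called higher (2.56% against 8.94%) and 2 lower (5.13% against 4.89%). The secreted Wnt antagonist SOST, called higher and given further below, is not among them. DKK3, a secreted Dickkopf relative, fell from 157 and 152 to 9.33 and 0.869, 1.31 and 5.699 TPM (difference -4.69, SE 0.53, limma adjusted p = 1.31e-05), and the R-spondin receptor LGR5 from 5.71 and 5.05 to 0.503 and 0.168, 0.286 and 0.477 (difference -2.14, SE 0.26, limma adjusted p = 3.38e-05). PORCN, which attaches the lipid to Wnt ligands, rose from 0.649 and 0.241 to 9.21 and 5.51, 6.799 and 7.48 (difference 2.22, SE 0.60, limma adjusted p = 0.0194); it was not called without either library of 1 month, without replicate 1 of 2 months or with the replicate block. In the Notch and Hedgehog list 1 of 19 was called (5.26% lower against 4.89%), the Notch target HES5, which fell from 4.13 and 2.82 at 1 month to 0.195 TPM in the polyA library and 0.140, 0 and 0 in the depleted ones (difference -1.94, SE 0.21, limma adjusted p = 5.61e-06). The Notch target HES1 and the Hedgehog factor GLI3 were listed at 0 in all 6 libraries. LGR5 and HES5 were below 1 TPM in every library of 2 months and passed the filter only through those of 1 month.

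Several genes of the interferon response and antigen presentation fell. Of 12 tested, 7 fell (58.3%, against 4.89% of all genes) and 0 rose, with a median of -1.99. IRF1, a transcription factor induced by interferon, had 2378 and 2462 TPM at 1 month, 37.7 in the polyA library of 2 months and 152, 199 and 12.9 in the depleted ones. Every library of 2 months was far below both of 1 month (difference -6.06, SE 1.54, limma adjusted p = 0.0136). B2M, the light chain of MHC class I, fell from 7847 and 8094 to 1402 and 264, 350.1 and 271 (difference -3.37, SE 0.84, limma adjusted p = 0.0124), and PSMB9, an immunoproteasome subunit, from 162 and 168 to 42.7 and 18.03, 21.4 and 29.4 (difference -2.65, SE 0.82, limma adjusted p = 0.0373).

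Genes of interferon signalling and antiviral defence were called as well. IRF9, a transcription factor of the type I interferon response, was at 159.6 and 133 TPM and then at 43.1 and 15.8, 17.4 and 18.7 (difference -2.41, SE 0.71, limma adjusted p = 0.0295). The antiviral gene RSAD2 (viperin) fell from 129 and 120.2 to 7.37 and 11.8, 22.8 and 11.5 (difference -3.69, SE 0.66, limma adjusted p = 0.00121), and HERC6, an interferon-induced ubiquitin ligase, from 9.34 and 8.88 to 1.99 and 2.52, 3.599 and 6.37 (difference -1.64, SE 0.53, limma adjusted p = 0.0461). HERC6 was called under 9 of 23 alternatives and in 1 of the 6 fits that leave out a library, the one without replicate 4 of 2 months. The sensor IFIH1 overlapped between ages (61.6 and 61.6 against 78.4 and 46.6, 56.6 and 46.4). The summed level of 13 such genes was 11107 and 11377 TPM at 1 month, 1735, 666, 866 and 527 at 2 months and 251 to 314 at 3 months. With polyA libraries alone 3 of 12 were called. Without either library of 1 month 1 was, and without replicate 1 of 2 months 4 were.

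Immediate-early and stress genes, which respond within minutes to stress, cytokines or growth factors, were called lower in a few cases. Of 28 tested, 3 fell (10.7% against 4.89%) and 0 rose, with a median of -1.10. In 10 of the 28 all 4 libraries of 2 months lay below both of 1 month, and in 5 all 4 lay above, against 19.4% and 47.5% of all genes. The median was -0.18 with depleted libraries of 2 months alone, where the median over all genes was 0.98. In that fit age and library type cannot be told apart. ATF3, a stress-induced transcription factor, had 1325 and 1368 TPM at 1 month, 10.97 in the polyA library and 112, 138 and 6.59 in the depleted ones (difference -6.50, SE 1.80, limma adjusted p = 0.0216). Replicates 2 and 3 of 2 months were well above replicates 1 and 4, and all 4 were below 1 month. KLF6 fell from 663 and 781 to 105 and 58.6, 63.8 and 42.995 (difference -3.12, SE 0.73, limma adjusted p = 0.00787), and CCN1, a matricellular early gene, from 2771 and 2233 to 224 and 203, 243 and 30.4 (difference -4.44, SE 1.21, limma adjusted p = 0.0198). Summed over 29 genes the level was 15528 and 14238 TPM at 1 month and 3565, 5433, 5966 and 1996 at 2 months. Without replicate 2 of 1 month 0 of the 28 were called, without replicate 1 of 1 month 1 was, and with polyA libraries alone 0 were.

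Complement, coagulation and protease-inhibitor genes gave 3 lower calls of 17 (17.6% against 4.89%) and 0 higher. SERPINF1, a secreted inhibitor of vessel growth, fell from 1078 and 982 to 237 and 98.1, 103 and 104 TPM (difference -2.99, SE 0.64, limma adjusted p = 0.00448). The complement gene C7 (16.3 and 27.8 against 2.54 and 2.22, 1.698 and 2.65, difference -2.72, SE 0.60, limma adjusted p = 0.00562) and the plasminogen activator PLAU (55.8 and 39.03 against 7.15 and 1.62, 2.27 and 7.79, difference -3.07, SE 0.90, limma adjusted p = 0.0302) were the others. Without replicate 2 of 1 month or replicate 1 of 2 months 1 of the 17 was called.

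**Figure D4:**
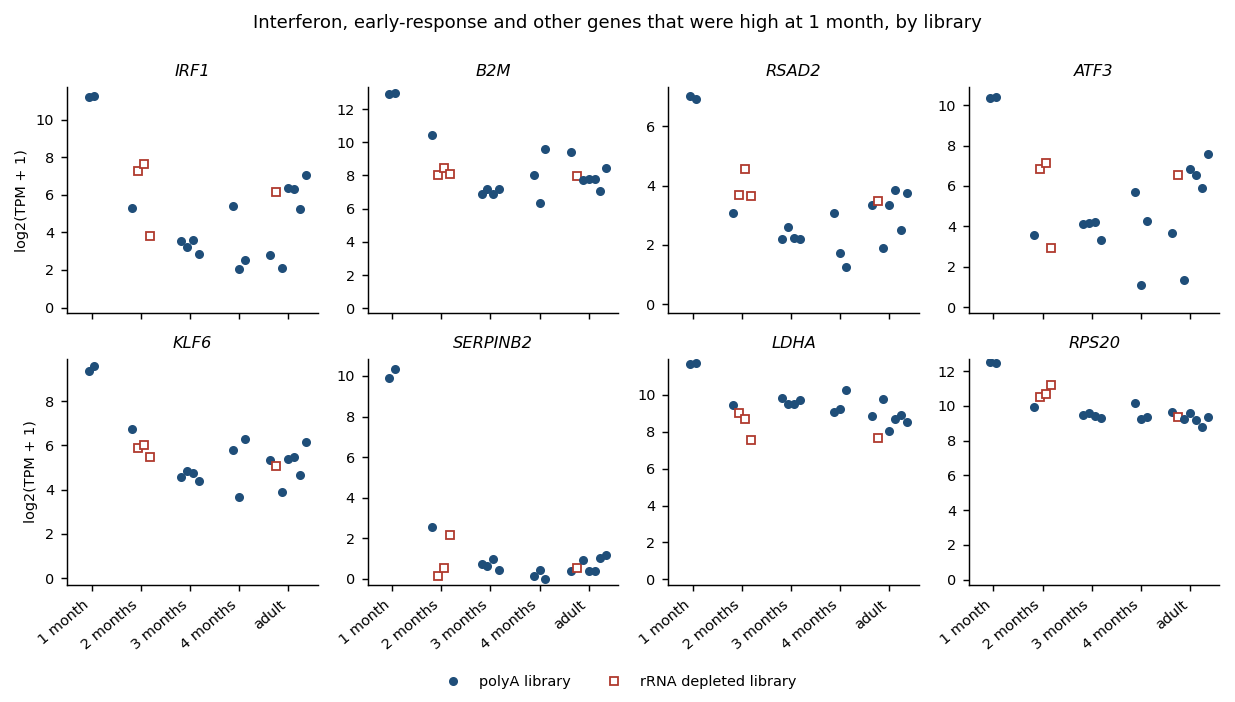
Each panel shows log2(TPM + 1) of 1 gene that was high at 1 month in every opossum bulk library by age, with polyA libraries as filled circles and rRNA-depleted ones as open squares. Both libraries of 1 month lie above all 4 of 2 months in each panel, and ATF3 and IRF1 are higher in depleted replicates 2 and 3 than in replicates 1 and 4.

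Cell cycle genes gave few calls, though many lay lower without overlap. Of 22 G2 and M genes 2 lay higher and 9 lower in this way, and of 22 S-phase genes 6 and 8 (47.5% and 19.4% of all genes). The medians of these lists were -0.12 and -0.13, against 0.44 over all genes. CCNB1, the mitotic cyclin, fell from 433 and 526 to 85.1 and 62.97, 46.6 and 49.5 TPM (difference -2.39, SE 0.67, limma adjusted p = 0.0241), and AURKB, the kinase of the chromosomal passenger complex, from 166 and 185 to 25.9 and 25.5, 19.8 and 16.96 (difference -2.72, SE 0.60, limma adjusted p = 0.00555). They were the 2 calls among 22 G2 and M genes (9.09% against 4.89%). Among 22 S-phase genes (4.55% higher against 8.94%, 9.09% lower against 4.89%) the helicase subunit MCM5 rose (2.45 and 2.17 against 25.2 and 11.8, 12.3 and 36.7, difference 2.41, SE 0.62, limma adjusted p = 0.0153), and the replication licensing factor CDC6 (73.05 and 99.5 against 26.7 and 10.8, 12.1 and 14.1) and the clamp loader subunit RFC3 (78.8 and 84.2 against 28.2 and 20.1, 17.6 and 20.5) fell, with differences of -1.89 (SE 0.49, limma adjusted p = 0.0157) and -1.30 (SE 0.39, limma adjusted p = 0.0336). None of the 3 S-phase genes was called without replicate 1 or 2 of 1 month, without replicate 1 of 2 months or with the replicate block. The G2 and M calls fell to 1 without replicate 1 of 1 month (CCNB1 lost) and to 0 without replicate 2 of 1 month or replicate 1 of 2 months. Median-ratio scaling gave 8 lower S-phase calls, in a fit where 2045 of all 16421 genes were lower.

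Ribosomal protein genes fell in 6 of 30 cases (20%, against 4.89%) and rose in 0, with a median of -0.79. RPS20 went from 5850.5 and 5677 TPM to 993 in the polyA library and 1482, 1629.7 and 2395 in the depleted ones (difference -2.23, SE 0.38, limma adjusted p = 0.000776), and RPL11 from 1652 and 1672 to 556 and 469.8, 499 and 868 (difference -1.68, SE 0.37, limma adjusted p = 0.0057). The polyA library and depleted replicates 2 and 3 were lowest and replicate 4 was between them and 1 month. Their summed level was 44147 and 42727 TPM at 1 month and 18830.3, 20899.5, 21786 and 34668 at 2 months. The number called lower was 2 without replicate 2 of 1 month or replicate 1 of 2 months, 11 without replicate 4 of 2 months, 20 under median-ratio scaling and 3 with mitochondrial genes left out. Over all genes the lower calls numbered 810 without replicate 4 of 2 months, 2045 under median-ratio scaling and 665 without mitochondrial genes. Ribosomal proteins have many near-identical copies in mammalian genomes, and how the authors' counting split such reads is not given in the sources used here.

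Of 17 nuclear oxidative phosphorylation genes 1 was called (5.88% lower against 4.89%), and 11 lay lower without overlap (19.4% of all genes did). The call was ATP5F1C of the ATP synthase, which fell from 739 and 753 to 238 and 159, 173 and 169.5 TPM (difference -1.42, SE 0.37, limma adjusted p = 0.0162). It was not called without either library of 1 month, without replicate 1 of 2 months or with mitochondrial genes left out. In glycolysis the calls were LDHC, LDHA and the phosphofructokinase PFKL, which rose from 1.96 and 1.78 to 33.6 and 64.2, 72.8 and 68.8 (difference 3.18, SE 0.78, limma adjusted p = 0.0104). Of the 15 tested 13.3% were higher and 6.67% lower, against 8.94% and 4.89% of all genes. Without either library of 1 month or replicate 1 of 2 months LDHC alone of these 3 was called. Cholesterol synthesis gave 0 calls of 16, against 13.8% of all genes.

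**Figure D5:**
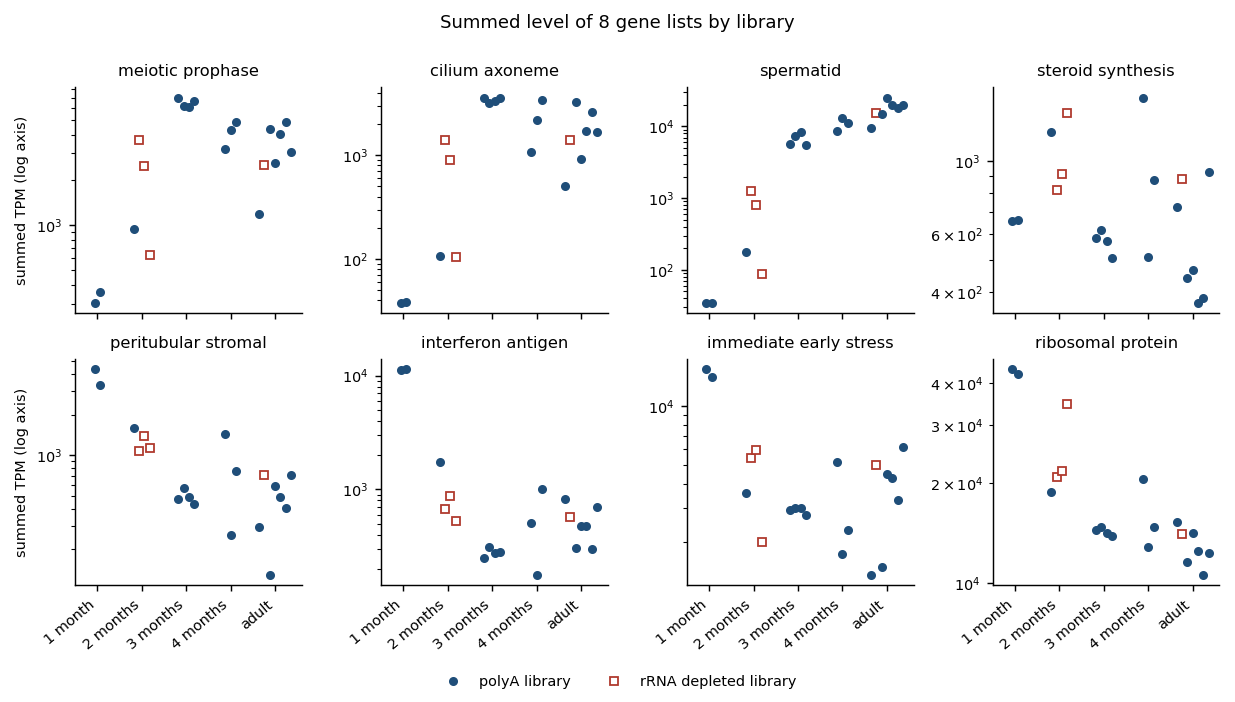
Each panel shows the summed TPM of the members of 1 gene list in every opossum bulk library by age on a log axis, with polyA libraries as filled circles and rRNA-depleted ones as open squares. The meiotic, cilium and spermatid sums of replicates 1 and 4 of 2 months lie between 1 month and replicates 2 and 3, and the interferon sum of both libraries of 1 month is above that of all other libraries.

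The named genes with the largest increases that held in the polyA library came from several settings. Of these, SOST was not called without replicate 1 of 2 months, TRPV2 and MVP without that library or either of 1 month, UNC13D without it or replicate 2 of 1 month, and FAM229B and ZMYND10 without either library of 1 month. MVP was also lost with polyA libraries alone and with the replicate block. HMGB4, an HMG-box protein of male germ cells, rose from 0.452 and 0.554 TPM to 43.9 and 389.7, 249 and 15.1 (difference 6.27, SE 1.15, limma adjusted p = 0.0014), with the same split between replicates as HSPA2. ZMYND10, needed to assemble dynein arms, went from 0.341 and 0.261 to 24.1 and 784, 411 and 10.1 (difference 5.23, SE 1.40, limma adjusted p = 0.0182). FAM229B shared this order (7.57 and 9.04, then 205 and 2427, 1334 and 63.3, difference 5.29, SE 1.24, limma adjusted p = 0.00841). SOST, the secreted Wnt antagonist sclerostin, was at 0.197 TPM and a listed 0 at 1 month and at 239 in the polyA library, the highest value by far, and 25.9, 38.3 and 33.9 in the depleted ones (difference 6.08, SE 1.14, limma adjusted p = 0.00174); at 3 months it was 2.83 to 8.34.

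The remaining ones also lay above 1 month in all 4 libraries of 2 months, which the rule that picked these genes required. PGPEP1, a peptidase that removes N-terminal pyroglutamate, had 3.42 and 2.397 TPM at 1 month against 466 and 403, 512 and 581 (difference 6.34, SE 0.99, limma adjusted p = 0.000363). RENBP, a sugar epimerase (2.96 and 2.67 against 299 and 522, 642 and 194), and MAN2B1, the lysosomal alpha-mannosidase (1.23 and 0.164 against 187 and 149, 144 and 91.004), differed by 6.08 (SE 0.81, limma adjusted p = 7.21e-05) and 6.07 (SE 0.57, limma adjusted p = 1.80e-06). The calcium channel TRPV2 (5.76 and 5.86 against 412 and 415, 506 and 419.9) and ACSBG1, a fatty acyl-CoA synthetase (1.36 and 1.02 against 104 and 170.0, 173 and 85.02), differed by 5.33 (SE 1.27, limma adjusted p = 0.0091) and 5.33 (SE 0.66, limma adjusted p = 3.65e-05). The deubiquitinase BAP1, the secretory genes HYOU1 and ARFGAP2, the vesicle priming factor UNC13D and the vault protein MVP followed, and LDHC, given above, completes the 15. BAP1, HYOU1, ARFGAP2, UNC13D and MVP had differences of 5.49, 5.44, 5.39, 5.18 and 5.10. Several of these serve most cell types; BAP1, for example, had 2.96 and 1.95 TPM at 1 month against 404 to 486 at 3 months. In all, 142 genes were below 1 TPM in both libraries of 1 month and at least 10 in all 4 of 2 months, and 95 of these were at least 5 TPM in 12 or more of the 14 older libraries. The opposite, at least 10 at 1 month and below 1 in all 4 of 2 months, held for 13.

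The largest decreases included SERPINB2, VSTM2A, CPE, MSTN and EDN1. SERPINB2, an inhibitor of plasminogen activators, fell from 942 and 1281 TPM to 4.94 and 0.117, 0.434 and 3.45 (difference -8.11, SE 0.56, limma adjusted p = 3.87e-08), and VSTM2A from 148 and 271 to 0.998 and 0.915, 0.49997 and 0.466 (difference -7.03, SE 0.41, limma adjusted p = 4.60e-09). The prohormone-processing enzyme CPE (774 and 648 against 13.2 and 9.84, 14.9 and 21.8), the muscle growth inhibitor MSTN (82.3 and 43.03 against 0.126 and 0.483, 0.612 and 0.158) and the vasoconstrictor EDN1 (218 and 215 against 4.73 and 5.74, 5.02 and 0.541) differed by -5.71 (SE 1.00, limma adjusted p = 0.000959), -5.60 (SE 0.59, limma adjusted p = 5.37e-06) and -5.34 (SE 0.59, limma adjusted p = 9.77e-06). The rule that picked these genes required that the ages not overlap. At 3 months their ranges were 0.345 to 0.981 TPM for SERPINB2, 0.659 to 1.13 for VSTM2A, 2.92 to 5.096 for CPE, 0.449 to 1.124 for MSTN and 1.68 to 2.86 for EDN1.

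FABP7, a fatty acid binding protein, measured 35.96 and 37.2 TPM at 1 month, was listed at 0 in the polyA library of 2 months and had 0.116, 0.182 and 0.0714 in the depleted ones (difference -5.16, SE 0.15, limma adjusted p = 2.37e-13); it was listed at 0 in all 4 libraries of 3 months. MAOB, MPZL2, HTRA3, FAM89A and PENK (proenkephalin) differed by -5.08, -5.03, -4.81, -4.81 and -4.81, and ATF3, IRF1, DKK3 and POSTN, given above, complete the 15. PENK and ATF3 were not called without either library of 1 month, without replicate 1 of 2 months, with polyA libraries alone or with the replicate block, and HTRA3 not with polyA libraries alone. Of the 2271 calls 1392 carry a gene name. Among those without one, ENSMODG00000001457 rose from a listed 0 in both libraries of 1 month to 135 and 739, 464 and 48.9 TPM, and ENSMODG00000024066 fell from 2325 and 2966 to 47.02 and 3.07, 7.47 and 53.1 (difference -6.87, SE 0.96, limma adjusted p = 0.000121).

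In the coordinates of the deposited tables, whose opossum build is not given in the sources used here, SYCP1 lies on chromosome 2 from 485963511 to 486035723, HSPA2 on chromosome 1 from 267216508 to 267218420, NR5A1 on chromosome 1 from 418886964 to 418937832, IRF1 on chromosome 1 from 307231278 to 307241490, B2M on chromosome 1 from 202718780 to 202732335 and POSTN on chromosome 4 from 311079564 to 311126564. The tables give 1 value per gene, so transcript forms, exons and untranslated regions were not separated. Sequences of these genes are not used here.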

How the data were processed

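Bulk RNA-seq tables of 20 opossum testis libraries were used. Per the submitters' processing notes, HISAT2 2.2.1, SAMtools 1.12 and StringTie 2.1.4 were run; the notes name GRCm39, a mouse build, and the opossum build is not given in the sources used here. The deposited tables hold, per the file headers, signal (read coverage), FPKM and TPM per gene. TPM as deposited by the authors was used; FPKM gave an alternative and coverage the aligned bases. Read counts are not given, so no counting interval is printed.

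Of 34985 genes, 1904 small noncoding RNA genes were left out (1517 by name, 387 by a span under 200 bases), and TPM was rescaled to its usual total over the rest. Genes that reached 1 TPM in 2 or more of the 6 libraries were tested on log2(TPM + 1) with limma 3.58.1 (R 4.3.3, trended empirical Bayes, two-sided, Benjamini-Hochberg), with age and library type as terms over all 20 libraries. Library type is thus estimated from 2 months (1 polyA, 3 depleted) and adults (6 polyA, 1 depleted). Calls needed an adjusted p under 0.05 and a log2 difference of at least 1. The script was tested on simulated data.

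The groups come from the labels. The members, gene lists and call rules were chosen with earlier results of these data known. Named genes are list members and, per direction, the 15 named genes with the largest differences among calls without overlap whose polyA library of 2 months lay beyond 1 month by at least 1. Alternatives changed the terms, libraries, scaling, filter, pseudocount and variance trend. A list's percent is over its members that passed the filter, and such counts are no independent support. Some genes passed the filter only through the age where they were high. GDF9, TFAP2C, RBP4, CRABP1, LGR5, HES5 and FABP7 did so through 1 month, and INHBB, CYP19A1 and PORCN through 2 months. The call of such a gene is no independent support either. Values are given for some list members only; list counts include all of those tested. Single-cell samples were not analysed here.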

Additional observations from a re-analysis of the deposited data

Results flagged for a closer look

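Among 120 genes given here with a test, 8 had a library of 2 months whose gap to the nearest of the other 3 exceeded Dixon's 95% critical value on the log2(TPM + 1) scale; chance flags about 1 in 20 groups. The polyA library, replicate 1, was the highest for B2M (1402 TPM, the others 264 to 350.1), IRF9 (43.1, the others 15.8 to 18.7) and SERPINF1 (237, the others 98.1 to 104), and the lowest for PFKL (33.6, the others 64.2 to 72.8). B2M, IRF9 and SERPINF1 were called lower at 2 months and in replicate 1 lay between 1 month and the depleted libraries.

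Replicate 4 was the lowest for CCN1 (30.4 TPM, the others 203 to 243) and EDN1 (0.541, the others 4.73 to 5.74). Replicate 2 was the highest for MVP (43.8, the others 34.8 to 36.2) and replicate 3 for TRPV2 (506, the others 412 to 419.9). Library type and replicate cannot be told apart for replicate 1, the 1 polyA library of its age.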

How the results depend on the processing

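Of 23 alternatives, 2 of them (mitochondrial genes left out, and the 3 older polyA libraries with few detected genes left out) were chosen after seeing the data. No gene given here changed its direction with a call in either fit: of 95 such genes called, 35 stayed called under every alternative in which they were tested, among them SYCP1, DMC1, FKBP6, FDXR, CRABP1, POSTN, THBS2, DKK3, RSAD2, SERPINB2 and RPS20, and 62 stayed called with polyA libraries alone. Counts of genes (all, higher, lower) depended on how library type was treated. They were 6597, 4881 and 1716 without a term for it, 3807, 2764 and 1043 with the 6 libraries alone, 5939, 4325 and 1614 with both changes, 1292, 863 and 429 with polyA libraries alone, and 8479, 6450 and 2029 with depleted libraries of 2 months alone, where age and type cannot be told apart.

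Leaving out the 3 older libraries gave 5812, 4409 and 1403. Leaving out mitochondrial genes gave 2264 higher, and median-ratio scaling 2045 lower. Leaving out each of the 6 libraries in turn gave 855 to 2424 calls, 480 to 1614 higher and 375 to 810 lower; the smallest were without replicate 2 of 1 month (855), replicate 1 of 1 month (991) and replicate 1 of 2 months (1101). The cause of the changes was not tested. FPKM rescaled to the same total is the same quantity as TPM and gave the same counts. A pseudocount of 0.1 gave 1998 higher and 626 lower calls, and the other filters, the deposited scaling and the fit without a trend stayed within 1.5 times.

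The ages of 1 and 2 months share replicate numbers 1 and 2 only, and the labels do not say that a number marks a shared animal or day. Same-numbered deviations from the age means correlated across genes at -0.01 and 0.01. The 2 deviations of 1 month mirror each other, and replicate 1 of 2 months is the only polyA library of its age. These correlations thus cannot show whether a number marks something shared. With the replicate number as a block over all 20 libraries, the counts were 1172, 678 and 494, and 64 of the 95 genes stayed called. The small number of libraries, 2 at 1 month, and the unknown read depth limit all differences, and those of genes near 1 TPM most. Each SE rests on spread pooled over all 20 libraries. For CRABP1 and RBP4 the 2 libraries of 1 month lay farther apart than the printed SE conveys, so their p-values are read with caution.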

Other observations

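Several genes were higher in all 4 libraries of 2 months than in both libraries of 1 month and also than in all 4 polyA libraries of 3 months. They were picked after their values had been seen, and the difference between 2 and 3 months was not tested. DNMT3A, the de novo DNA methyltransferase, lay at 7.83 to 12.3 TPM at 3 months against 36.3 in the polyA library of 2 months and 35.98, 42.4 and 82.03 in the depleted ones. The inhibin subunit INHA was at 11.6 to 23.5 TPM at 3 months against 174 and 34.04, 76.8 and 141, and the sclerostin gene SOST at 2.83 to 8.34 against 239 and 25.9, 38.3 and 33.9. IGFBP4, which binds insulin-like growth factors, had 21.2 and 15.3 TPM at 1 month, 149.6 and 216, 247 and 434 at 2 months and 42.2 to 65.3 at 3 months, and was not called between 1 and 2 months (limma adjusted p = 0.0522). The libraries of 3 months are all polyA, so for the depleted libraries age and library type cannot be told apart here.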
